A study of Mus musculus with 6 samples.

Results

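The SPARC family is a group of secreted glycoproteins that sit in the extracellular matrix without building it, and the 8 genes described here (Sparc, Sparcl1, Smoc1, Smoc2, Spock1, Spock2, Spock3 and Fstl1) were taken by name from 23279 genes measured on each array. The family was selected on values of these same arrays, above all the large difference of Sparcl1 between the groups, and its members were then listed by name. Their differences between the groups are therefore given as a description, with no p-value.

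Expression was measured in whole livers of mouse embryos at embryonic day 11.5 on 6 Affymetrix arrays. In 3 of them the livers are labelled Stab2Cre;Gata4 knockout, that is, Stab2-Cre with both Gata4 alleles floxed, and in the other 3 they are controls labelled Stab2Cre;Gata4 heterozygous, so the labels give the Cre transgene to both groups. Embryos came from Stab2-Cre tg/wt;Gata4 fl/wt mice mated to Gata4 fl/fl mice. Stab2 is a scavenger receptor gene of the sinusoidal endothelium, the lining of liver capillaries, and its promoter drives the Cre, so recombination is directed to those cells while RNA was taken from all cells of the liver.

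Proteins of the family share a follistatin-like domain and, in most members, a calcium-binding domain with EF hands. They bind collagens, growth factors and proteases and are known for tuning adhesion, matrix assembly and growth factor access rather than for mechanical strength. In the developing liver the matrix around the capillaries is laid down mainly by mesenchyme and endothelium, and SPARC is made by both in many tissues.

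The hepatic markers Alb and Afp read at least 13.29 in each array on the log2 scale, close to the highest value of 13.91. Gata4 read 10.38, 10.26 and 10.64 in the livers labelled knockout and 9.90, 9.96 and 9.87 in controls, so it was higher under the knockout label. Its difference was 0.51 (SE 0.12, limma adjusted p = 0.0409), and it was called higher. Liver cells outside the sinusoids express Gata4 too, and where the probes lie relative to the floxed region is not known, so the labels could not be checked by it and each direction below rests on them. Stab2 fell by 1.30 on the log2 scale (SE 0.20, limma adjusted p = 0.0161). Embryo sex was not balanced: Xist was high in the 3 livers labelled knockout (10.31 to 10.71) and in control replicate 2 (10.19) but not in control replicates 1 and 3 (3.58 and 3.96), so differences against control replicate 2 alone are given for the members. Control replicate 2 in turn stood apart for heart muscle genes. Actn2 read 3.81, 4.27 and 4.90 in livers labelled knockout and 4.67, 6.69 and 4.42 in controls. The median difference of 8 heart markers was −1.79 against that control alone and −0.40 against all 3. Labelled knockout replicate 3 also stood apart within its group. Relative to the control mean, its median over the heart markers was 0.37, while those of replicates 1 and 2 were negative. Summed on the linear scale, the heart markers read 233 to 1282 in livers labelled knockout and 248 to 1868 in controls. The part of heart tissue in the values of these arrays, and in differences against control replicate 2, was not tested. Values are log2, normalised by the authors to an identical distribution in all arrays with a median of 5.43, and their number is what limits precision. In a whole organ, more cells of a type and more RNA per cell cannot be told apart.

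RefSeq promoter windows of GRCm38.p6 (250 bases before to 50 after a gene's start) matched 5 of the 8 genes, in 6 windows; Sparcl1, Smoc1 and Smoc2 were not matched. They were searched on both strands for the GATA motif (GATAA or GATAG with A or T before it), because a GATA factor is the gene targeted, for the hypoxia-response core ACGTG, and for the GC box GGGCGG bound by Sp1-type factors; a GC box does not overlap the other motifs in these windows. The GATA motif was found in 1 of the 6 windows, that of Fstl1, against 29.8% of all 32851 windows of the same length. The hypoxia core was found in 1, that of Spock2, against 19.6% of all windows, and the GC box in 2, those of Fstl1 and Spock1, against 35.7%. A match is only a run of letters, and its absence says that the letters are not in this window. Shown 5′ to 3′ with matches in capitals are the 250 bases before the start of Fstl1, the member called in the fit described next that has a window, of Sparc, which gives the family its name, and of Spock2, the only member with a negative difference, followed by the 30 bases after the start of Fstl1 that hold its GATA match. They lie at chr16:37776805-37777054 (plus strand), chr11:55420081-55420330 (minus strand), chr10:60106007-60106256 (plus strand) and chr16:37777055-37777084 (plus strand).
Fstl1: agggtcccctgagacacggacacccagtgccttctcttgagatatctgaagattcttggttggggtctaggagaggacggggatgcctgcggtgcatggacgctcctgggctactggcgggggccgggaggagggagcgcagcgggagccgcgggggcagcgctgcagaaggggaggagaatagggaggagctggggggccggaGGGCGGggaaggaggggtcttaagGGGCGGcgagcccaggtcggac
Sparc: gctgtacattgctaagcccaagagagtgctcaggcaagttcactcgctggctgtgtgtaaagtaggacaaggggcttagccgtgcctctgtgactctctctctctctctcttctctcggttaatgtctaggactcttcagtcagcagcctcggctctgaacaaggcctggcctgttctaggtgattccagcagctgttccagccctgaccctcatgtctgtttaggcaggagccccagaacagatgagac
Spock2: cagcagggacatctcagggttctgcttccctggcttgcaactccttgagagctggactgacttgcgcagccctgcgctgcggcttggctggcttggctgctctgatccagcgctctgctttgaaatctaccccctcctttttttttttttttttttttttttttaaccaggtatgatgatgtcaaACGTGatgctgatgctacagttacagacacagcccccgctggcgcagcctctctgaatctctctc
Fstl1 after the start: ttcctcggagcctggTGATAAgcgacgctc

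Sparcl1 and Fstl1 were called higher in livers labelled knockout, Fstl1 not so with arrays centred on the level of Krt18 or on gene-centred hepatoblast markers (each gene's mean over the arrays subtracted first), and the other 6 family genes were not called. The fit was limma over all 23279 genes (Benjamini-Hochberg adjusted p under 0.05), in which 3.59% of genes were called higher and 2.77% lower. The 3 arrays labelled knockout all lay above the 3 controls for 4 members, Sparc, Sparcl1, Spock3 and Fstl1, which was so for 13.0% of all genes, and for no member did they all lie below, against 14.3%. All members but Spock2 had a positive difference, and the median over the 8 was 0.45 on the log2 scale, against −0.01 over all genes; with arrays centred on the median level of the hepatoblast markers, which is that of Krt18 alone, the differences of Sparc, Smoc1, Smoc2, Spock1 and Fstl1 turned negative, while centred on gene-centred values of the same list they stayed positive, from 0.19 to 0.36. These are the values with which the members were chosen, so nothing is read from their counts. Without control replicate 3 the whole fit called 25 genes higher and 16 lower, against 836 and 644 with all arrays, and Sparcl1 was then the only member called. With each array centred on Krt18, 127 genes were called higher and 11109 lower, around a median that moved to −0.51, and on the gene-centred list 346 higher and 1219 lower, around a median of −0.14.

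**Figure D1:**
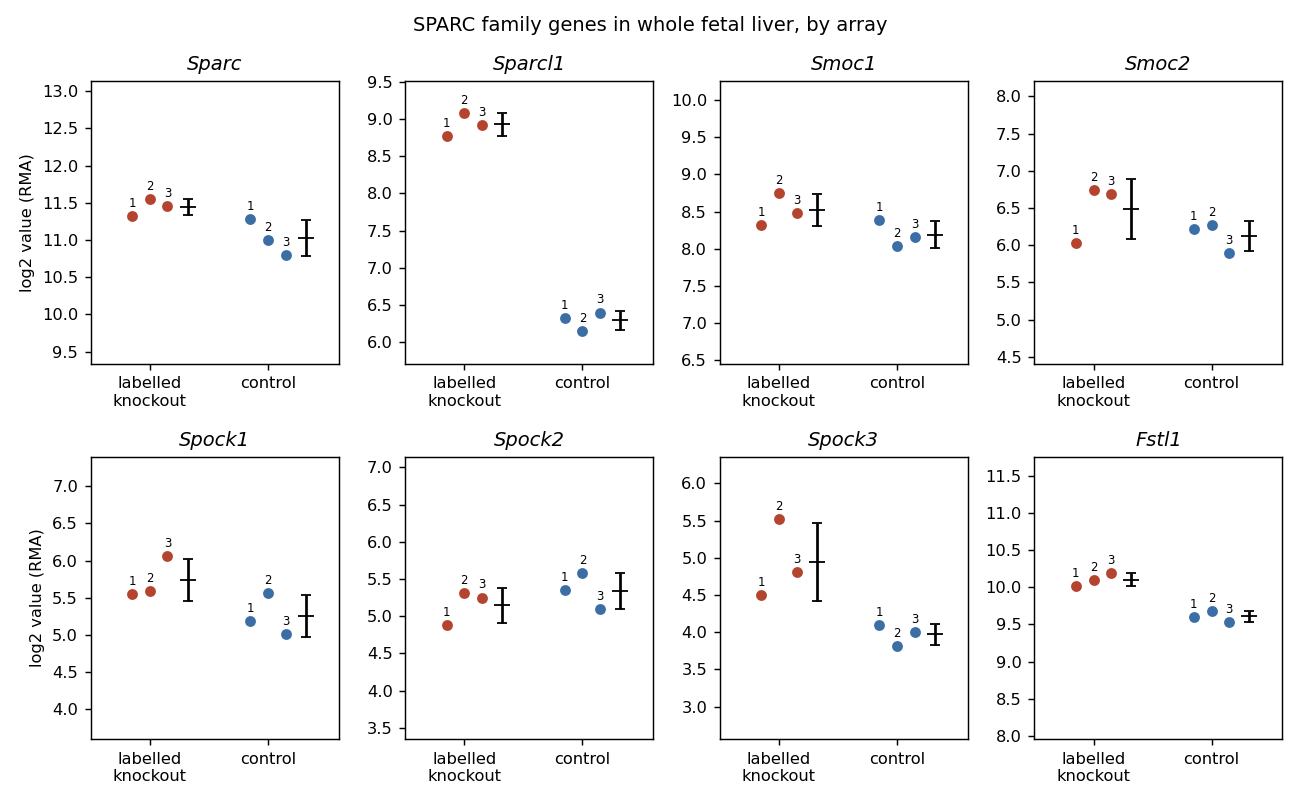
Log2 values of the 8 family genes in each array, with the livers labelled knockout at left (red) and controls at right (blue) in each panel; digits are replicate numbers, and the black bar is the mean ± SD of 3 arrays. Each vertical axis spans the same range of log2 units around its own centre. Only Sparcl1 shows a wide gap between the groups.

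Sparcl1 encodes hevin, the closest relative of SPARC, a matrix protein of blood vessels and of brain astrocytes that acts against adhesion. It read 8.78, 9.09 and 8.92 in livers labelled knockout and 6.33, 6.15 and 6.40 in controls. The groups lay far apart: the lowest array labelled knockout exceeded the highest control by 2.38, while the arrays labelled knockout spanned only 0.31 and the controls 0.25. It averaged 8.93 ± 0.15 in livers labelled knockout and 6.29 ± 0.13 in controls (SD, n = 3 each), a difference of 2.64 (SE 0.12), or 6.21-fold. Among all genes it ranked 3rd from the top by difference. Its pooled SD of 0.14 was at percentile 49.7 of all genes, so its arrays scattered as much as those of a typical gene. Against control replicate 2 alone the difference was 2.78, and with any 1 array left out it stayed between 2.56 and 2.71. In each of those 6 fits Sparcl1 was still called. The family was selected on this difference in the same arrays, so nothing is read from these calls.

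Sparc itself, the collagen-binding protein also called osteonectin, was the member in which the groups came closest without overlapping. It read 11.33, 11.55 and 11.45 in livers labelled knockout and 11.29, 11.00 and 10.80 in controls. The lowest array labelled knockout exceeded control replicate 1 by only 0.04, and the arrays labelled knockout spread less widely (a range of 0.22) than the controls (0.48). The difference was 0.41 (SE 0.14), or 1.33-fold, and Sparc was not called; it was −0.09 with arrays centred on Krt18 and 0.28 on the gene-centred hepatoblast list. Against control replicate 2 alone it was 0.44. Without control replicate 3 it was 0.30 and without control replicate 1 it was 0.54, so its size depended on which control was left out.

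Fstl1, follistatin-like 1, is a mesenchymal glycoprotein that antagonises bone morphogenetic protein (BMP) signalling. It had 10.02, 10.10 and 10.18 in livers labelled knockout and 9.60, 9.68 and 9.54 in controls. Its difference of 0.49 (SE 0.09), or 1.41-fold, was much smaller than that of Sparcl1, but its arrays scattered little: the pooled SD of 0.08 was at percentile 14.3 of all genes, and the groups were 0.33 apart at their nearest. Against control replicate 2 alone the difference was 0.42. The call was absent without labelled knockout replicate 2 or 3 or without any 1 of the controls, although the difference then stayed between 0.45 and 0.53, and it was absent with the sex term. Centred on Krt18, which itself differed by 0.50, the difference was −0.01, and on the gene-centred hepatoblast list it was 0.36; it was called in neither fit.

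Smoc1 and Smoc2 encode secreted modular calcium-binding proteins; SMOC1 is a BMP antagonist in eye and limb, and SMOC2 is linked to growth factor responses of endothelium. Smoc1 read 8.32, 8.76 and 8.48 in livers labelled knockout and 8.38, 8.04 and 8.15 in controls. Control replicate 1 lay above labelled knockout replicate 1, so the groups overlapped, and the difference of 0.33 (SE 0.14) was not called. Smoc2 read 6.02, 6.74 and 6.69 in livers labelled knockout and 6.22, 6.27 and 5.89 in controls. Here labelled knockout replicate 1 fell among the controls, below 2 of the 3, and apart from the other 2 arrays of its group. The difference was 0.36 (SE 0.20) and was not called, with a pooled SD at percentile 93.4 of all genes. Centred on Krt18 they were −0.17 for Smoc1 and −0.14 for Smoc2, and on the gene-centred hepatoblast list 0.19 and 0.22.

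The testicans Spock1, Spock2 and Spock3 are proteoglycans best known from the nervous system, and testican-1 and testican-3 can inhibit membrane-type matrix metalloproteinases. All were near or below the array median of 5.43, where a dim signal cannot be told from background with these values. Spock1 read 5.55, 5.60 and 6.06 in livers labelled knockout and 5.19, 5.56 and 5.01 in controls. Control replicate 2 lay just above labelled knockout replicate 1, by 0.01, so the groups overlapped. The difference of 0.48 (SE 0.18) was not called, and it was 0.17 against control replicate 2 alone, −0.02 centred on Krt18 and 0.35 on the gene-centred hepatoblast list.

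Spock2 was the exception in sign. It read 4.88, 5.31 and 5.25 in livers labelled knockout and 5.35, 5.58 and 5.09 in controls. The groups overlapped throughout, and the difference of −0.19 (SE 0.16) was not called. It ranged from −0.32 to −0.06 with 1 array left out, these being without control replicate 3 and without labelled knockout replicate 1, and on the gene-centred hepatoblast list it was −0.33 and not called. Centred on Krt18 it was −0.70 and was called lower, as were 11109 of the 23279 genes.

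Spock3 had the second-largest difference in the family but the widest scatter. It read 4.50, 5.52 and 4.81 in livers labelled knockout and 4.09, 3.82 and 4.01 in controls. All arrays labelled knockout exceeded all controls, by at least 0.40, yet replicate 2 stood 0.71 above the next array of its group. The difference was 0.97 (SE 0.24), or 1.96-fold, and was not called, with a pooled SD at percentile 96.5 of all genes. Without labelled knockout replicate 2 the difference was 0.68 and without labelled knockout replicate 1 it was 1.19, and Spock3 was called in both of those fits. It was also called with a variance trend, without the dimmest 25% of genes, with array weights and at an adjusted p of 0.1.

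**Figure D2:**
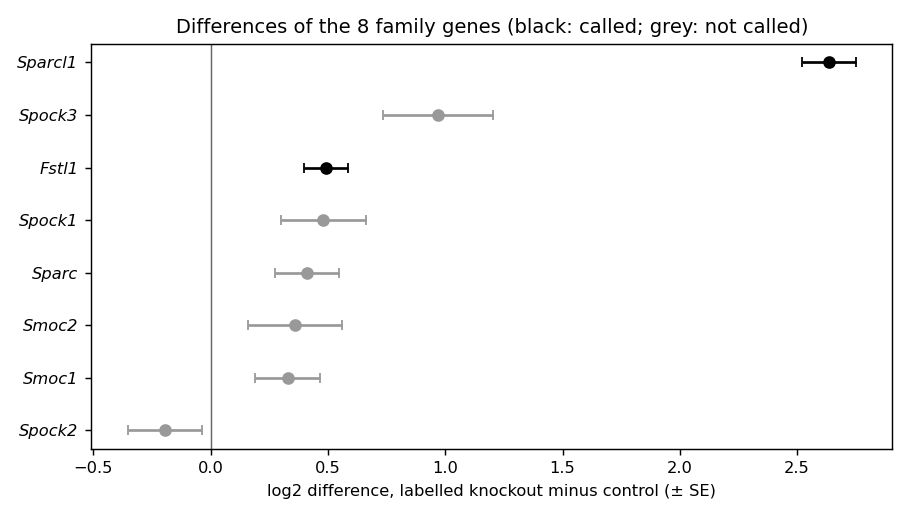
Log2 difference of each family gene, livers labelled knockout minus controls, with its moderated standard error (3 arrays a group); black points were called in the fit over all genes and grey points were not. Sparcl1 at 2.64 stands apart from the others, which run from −0.19 for Spock2 to 0.97 for Spock3; Sparc, Smoc1, Smoc2, Spock1 and Fstl1 turned negative with arrays centred on Krt18 but not on the gene-centred hepatoblast list.

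The same array stood apart for neural genes. Of 8 measured neural and glial markers 0 were called by limma (1 higher and 0 lower at an unadjusted p under 0.05), all 8 had a positive difference and their median was 0.48, but the median over the list relative to the control mean was 0.06, 1.09 and 0.24 in labelled knockout replicates 1, 2 and 3. Nefl, a neurofilament gene, read 3.79, 7.0 and 4.23 in livers labelled knockout and 3.67, 3.48 and 3.87 in controls, so replicate 2 alone was far above the rest. Fabp7, a gene of radial glia, read 6.21, 6.95 and 6.29 in livers labelled knockout and 5.94, 5.63 and 6.16 in controls. Summed over the list on the linear scale, the markers read 422 to 1184 in livers labelled knockout and 435 to 454 in controls. Labelled knockout replicates 1 and 3, whose medians over the neural list were 0.06 and 0.24, exceeded all controls for Spock3. They did so at dim readings of 4.50 and 4.81, below the array median of 5.43. Sparc, Sparcl1, Smoc1, Smoc2 and Spock2 also read highest within their group in labelled knockout replicate 2, and without that array the difference of Sparcl1 was 2.56. The part of neural tissue in the values of Spock3 and of these genes was not tested.

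**Figure D3:**
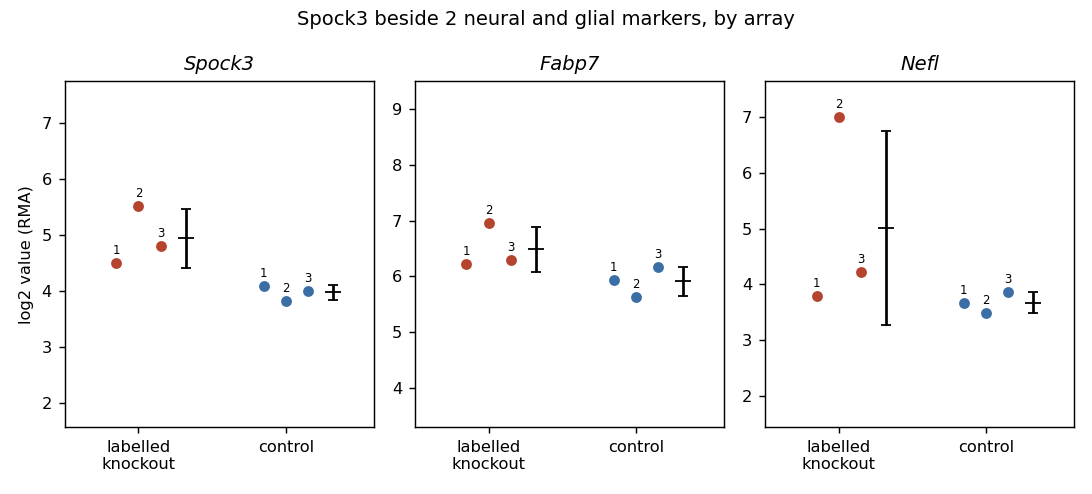
Log2 values of Spock3 and of the neural and glial markers Fabp7 and Nefl by array, livers labelled knockout at left (red) and controls at right (blue); digits are replicate numbers and bars are mean ± SD of 3 arrays. Labelled knockout replicate 2 was the highest array for all 3 genes.

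Genes whose 6 values ran closest to those of Sparcl1 were found by the root-mean-square distance of log2 values after subtracting each gene's control mean. They were Prnd, a prion-like gene (distance 0.27), Slc7a3, a cationic amino acid transporter (0.48), Ddit4, an inhibitor of mTORC1 (0.67), Rgs5, a pericyte gene (0.70), and Ciart, a circadian repressor (0.76). Prnd read 8.29, 8.76 and 8.26 in livers labelled knockout and 6.35, 5.53 and 6.21 in controls, with its highest value in labelled knockout replicate 2 as for Sparcl1. Slc7a3 had the opposite order, with 7.40, 6.37 and 7.06 in livers labelled knockout and 4.29, 3.65 and 3.95 in controls. Even the nearest of these genes was farther from Sparcl1 than the pooled SD of Sparcl1 itself (0.14). Predicted genes, Riken clones and expressed sequence tags were passed over, for Sparcl1 and for Fstl1, so a nearer one among them would not appear. For Fstl1 the nearest genes were Rbpms, Daam2, Yes1, Prr12 and Gpc3, each at a distance of 0.03 and each with a difference of 0.49 to 0.51. Among them Gpc3, a glypican proteoglycan of fetal liver, read 12.04, 12.16 and 12.20 in livers labelled knockout and 11.64, 11.65 and 11.59 in controls. Likeness over 6 arrays in 2 groups is mostly that of the group difference.

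**Figure D4:**
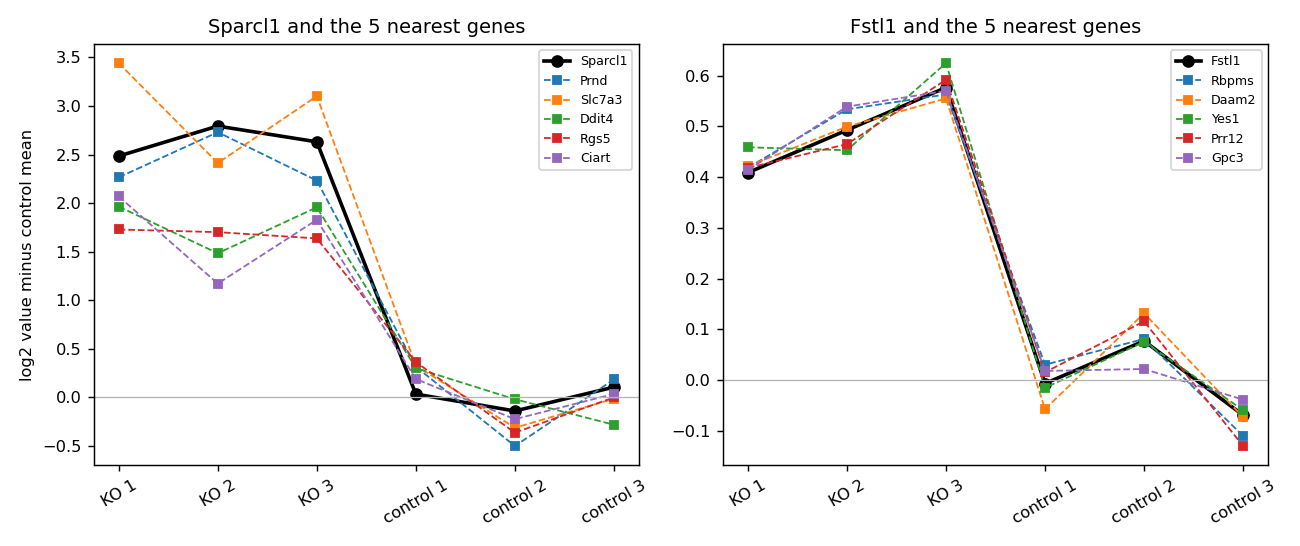
Log2 value minus the control mean in each array (KO, livers labelled knockout, then controls) for Sparcl1 at left and Fstl1 at right (black, solid) and the 5 genes nearest to each by root-mean-square distance (coloured, dashed). Predicted genes, Riken clones and expressed sequence tags were passed over. The Fstl1 group overlays within a few hundredths of a log2 unit per array, while the genes nearest to Sparcl1 lie up to 0.76 from it in root-mean-square distance.

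The 8 genes lie on 8 different chromosomes (Sparcl1 on 5, Spock3 on 8, Spock2 on 10, Sparc on 11, Smoc1 on 12, Spock1 on 13, Fstl1 on 16 and Smoc2 on 17). The genes beside Sparcl1, looked at after its values were known, did not share its difference. On one side lie Dspp, Dmp1 and Ibsp, genes of mineralised tissue matrix, and on the other, beyond a predicted gene, Nudt9 and Hsd17b11. Dspp read 3.87, 3.68 and 3.77 in livers labelled knockout and 4.04, 4.01 and 4.08 in controls, near the lower quartile of the array. Dmp1 and Ibsp overlapped between the groups and read at most 3.98. Nudt9 was called lower, at 9.07, 8.98 and 9.13 in livers labelled knockout and 9.37, 9.68 and 9.79 in controls.

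Collagen is the main ligand of SPARC, and of 20 collagen genes and genes that modify or cross-link collagen, 9 rose in livers labelled knockout, 0 fell and 11 were not called, with a median difference of 0.54 against −0.01 over all genes. The collagen lysyl hydroxylase Plod2 read 9.02, 8.79 and 9.05 in livers labelled knockout and 7.68, 7.63 and 7.49 in controls, a rise of 1.35 (SE 0.11, limma adjusted p = 0.00591). The prolyl 4-hydroxylase subunits P4ha2 (1.00, limma adjusted p = 0.00944) and P4ha1 (0.73, limma adjusted p = 0.0122) and the cross-linking oxidase Lox (0.71, limma adjusted p = 0.0141) rose as well. Of the collagen chains in the list, Col1a2, Col4a1, Col5a2 and Col6a1 were among the 9, outside the rule by which genes were chosen for naming. Without control replicate 3 the 9 became 1, without labelled knockout replicate 3 they became 3, without control replicate 2 they became 4, and with the sex term 0. Centred on Krt18, 1 gene of this list was higher and 1 lower, and on the gene-centred hepatoblast list 7 were higher and 0 lower.

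Other matricellular genes, which share the family's mode of action but not its domains, did not move one way. Of 19 measured, 2 rose, 1 fell and 16 were not called, with a median of −0.01, equal to that of all genes. The integrin ligand Tgfbi rose by 0.91 (SE 0.16, limma adjusted p = 0.0253) and thrombospondin Thbs3 by 0.57 (SE 0.12, limma adjusted p = 0.0383). Thrombospondin Thbs1, also abundant in platelets, fell by 0.82 (SE 0.17, limma adjusted p = 0.0326), while tenascin Tnc had a difference of 0.39 (limma adjusted p = 0.123). These 3 calls were absent without labelled knockout replicate 3 and without any 1 of the controls. Centred on Krt18, 0 genes of this list were higher and 9 lower, and on the gene-centred hepatoblast list 1 was higher and 1 lower.

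Among receptors, proteases and binding partners of the family, 4 of 22 rose, 0 fell and 18 were not called, with a median of 0.18. Mmp2, a gelatinase, read 9.65, 9.65 and 9.65 in livers labelled knockout and 8.95, 9.09 and 9.01 in controls, a rise of 0.63 (SE 0.09, limma adjusted p = 0.0128). Its activator Mmp14, the membrane-type protease, rose by 0.53 (SE 0.10, limma adjusted p = 0.0264), and Adamts4, a protease that cleaves hevin, by 0.55 (SE 0.13, limma adjusted p = 0.0418). Adamts4 read at most 5.22, below the array median of 5.43, where a dim signal cannot be told from background with these values. Vegfa, whose product SPARC binds, rose by 1.29 (SE 0.09, limma adjusted p = 0.00525). Stab1, the scavenger receptor through which SPARC is taken up and degraded, read 7.57, 7.44 and 7.64 in livers labelled knockout and 7.60, 7.75 and 7.46 in controls. Its groups overlapped and its difference was −0.05 (SE 0.11, limma adjusted p = 0.854). The lowest difference of the list was −0.87 for Itgb3, outside the naming rule and not called. The 4 rises of this list became 1 without control replicate 3, 2 without labelled knockout replicate 3 or control replicate 2, and 0 with the sex term. With a variance trend 3 genes of the list were called higher and 2 lower. Centred on Krt18, 1 gene of this list was higher and 7 lower, and on the gene-centred hepatoblast list 1 was higher and 1 lower.

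BMP signalling is the pathway that FSTL1 and SMOC1 restrain. Of 20 ligands, receptors and targets, 5 rose, 0 fell and 15 were not called, with a median of 0.43. The endothelial receptor Acvrl1 rose by 0.93 (SE 0.11, limma adjusted p = 0.0101), the target Id2 by 0.54 (SE 0.10, limma adjusted p = 0.0247), the receptor Bmpr1a by 0.67 (SE 0.12, limma adjusted p = 0.0267) and the ligand Bmp7 by 0.57 (SE 0.13, limma adjusted p = 0.0404). Of 17 other antagonists of BMP or activin 0 were called by limma (4 higher and 1 lower at an unadjusted p under 0.05), with a median of 0.14. Those with the smallest p were Smad6 (0.54, limma adjusted p = 0.0624), Chrdl1 (1.07, limma adjusted p = 0.0733), Smad7 (0.58, limma adjusted p = 0.115) and follistatin Fst (−0.39, limma adjusted p = 0.129). Chrdl1 was highest in labelled knockout replicate 2, at 6.19 against 4.82 and 5.36 in the other 2, like Spock3. Of the 20 BMP genes 1 was called when control replicate 1, control replicate 2 or the third array labelled knockout was left out, and 0 without control replicate 3 or with the sex term. Centred on Krt18, 1 of the 20 was higher and 2 lower, and on the gene-centred hepatoblast list 1 was higher and 0 lower.

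Of the markers of cells that could make these proteins, some were called and most were not. In the stellate and mesenchymal list 3 of 10 rose (Hand2, Rspo3 and, outside the naming rule, Pdgfra), 0 fell and the median difference was 0.43, with the list summing on the linear scale to 5700 to 6019 in livers labelled knockout and 3630 to 4108 in controls. In the endothelial list 4 of 10 rose, among them Pecam1 (0.63) and Emcn (1.00), with a median of 0.41 and sums of 4733 to 5944 in livers labelled knockout and 3600 to 4132 in controls. In the mural list 3 of 10 rose and 0 fell, led by Rgs5 (1.69) and Pdgfrb (0.56), with a median of 0.18. Its sums were 3248 to 4637 in livers labelled knockout and 2444 to 2968 in controls. Only 7 of the 10 mural differences were positive, and 4 genes were higher and 2 lower at an unadjusted limma p under 0.05. The lowest was Tagln (−0.44), outside the naming rule. Mural Higd1b read below the lower quartile (3.72) in each array. Mesothelial markers rose in 2 of 10 (Bnc1 and Krt19; median 0.33), and of 13 hepatoblast markers only Foxa1 rose (median 0.10). Only 7 of the 10 mesothelial differences were positive, and 2 genes were higher and 1 lower at an unadjusted limma p under 0.05. The lowest mesothelial difference was Msln (−0.23), outside the naming rule. Relative to the control mean, the mesothelial median was 0.30, −0.0039 and 0.53 in labelled knockout replicates 1, 2 and 3. Sinusoidal markers fell in 6 of 10 (median −0.55), macrophage markers in 9 of 10 (median −1.19) and erythroid markers in 5 of 10 (median −0.80), while 0 of 8 heart muscle markers were called by limma (0 higher and 1 lower at an unadjusted p under 0.05; median −0.40). With the sex term 3 genes were called higher and 0 lower over all genes, so none of these falls was called then. Without control replicate 3 the whole fit called 25 genes higher and 16 lower. Calls within each marker list were not counted under these settings.

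Set beside these lists, the differences of Fstl1 (0.49), Sparc (0.41), Smoc2 (0.36) and Smoc1 (0.33) lay near the medians of several. These were the neural and glial (0.48), mesenchymal (0.43), endothelial (0.41) and mesothelial (0.33) lists. In each of the mesenchymal, endothelial and mural lists 4 of 10 genes exceeded Fstl1, and in the neural and glial list 4 of 8. Whether these family genes differed beyond their cells was not tested. No gene of any of the 15 lists had a difference above that of Sparcl1. The family was selected on that large difference, so nothing is read from this ranking. The highest among mural, mesenchymal and endothelial markers were 1.69 for Rgs5, 1.16 for Pdgfra and 1.00 for Emcn. Whether Sparcl1 differed beyond its cells was not tested.

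**Figure D5:**
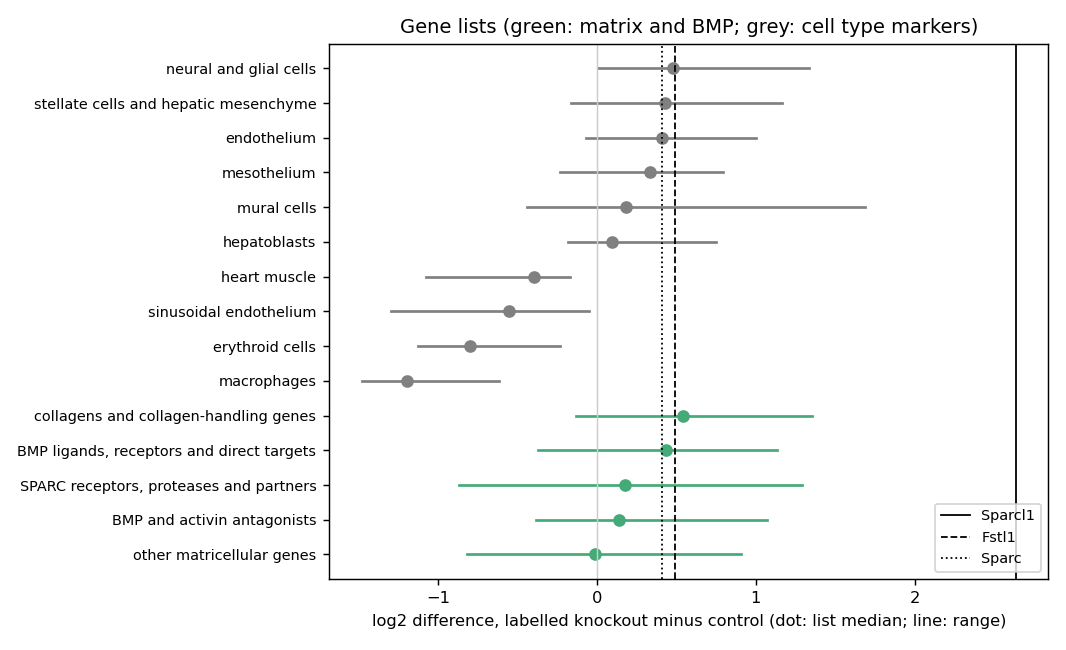
Median (dot) and range (line) of the log2 difference, livers labelled knockout minus controls, over the genes of each list; green lists are matrix and BMP genes and grey lists are cell type markers. Vertical lines mark Sparcl1 at 2.64, Fstl1 at 0.49 and Sparc at 0.41: the Sparcl1 line lies right of every list's range, while those of Fstl1 and Sparc, which turn negative centred on Krt18 but not on the gene-centred hepatoblast list, cross most lists that have positive medians. The family was selected on the large difference of Sparcl1.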

How the data were processed

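Total RNA of 6 whole fetal liver samples was hybridised to Affymetrix arrays as biotin-labelled cRNA, per the labels' protocols. The authors deposited log2 values computed by RMA, which the submitters' processing notes name without a version. RMA subtracts background, quantile-normalises and summarises probes, and the sorted values are identical in all 6 arrays. The chip type was not given in the sources used here. Whether replicates, called biological, came from separate litters or pools is not given either, so p-values measure the spread between these samples.

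Of 24479 features, 23281 were named through the platform annotation (23156 with the symbol of a GRCm38.p6 RefSeq gene table); where 2 features shared a gene the brighter was kept, which left 23279 genes. All 8 family genes matched 1 feature each. No value column lacked a sample, and no filter on dim genes was applied. The test was limma's moderated fit (version 3.58.1, under R 4.3.3; functions lmFit and eBayes; 4 residual and 4.06 prior degrees of freedom), knockout minus control with no covariate, with Benjamini-Hochberg adjustment over all genes and a threshold of 0.05. The fit was also run on simulated data with independent normal noise for each gene. That simulation held no sex imbalance and no outlying array, so it cannot speak to those features of the real arrays. An exact permutation test of 3 arrays against 3 cannot go below a two-sided p of 0.1.

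The family members and the 5 context and 10 marker lists were chosen with earlier results of these data known. Of 205 list entries, 197 matched a tested gene and the others were not analysed here. Genes named are the family, the 5 nearest genes of each called member, the 4 genes of each context list and 2 of each marker list with the smallest p, Gata4, Stab2 and Xist; others are said to be outside the rule. In the search for nearest genes, predicted genes, Riken clones and expressed sequence tags were passed over. Alternatives were a variance trend, robust eBayes, leaving out the dimmest 25% or 50% of genes, centring on hepatoblast markers, the replicate number as a block, a sex term, array weights, other thresholds and leaving out each array.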

Additional observations from a re-analysis of the deposited data

How the results depend on the processing

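Sparcl1 was called under every alternative run, with a difference of 2.13 with arrays centred on the hepatoblast list and 2.50 to 2.78 otherwise, and Fstl1 was not called under 5 settings besides those that left out an array. The family was selected on the large difference of Sparcl1 in these arrays, so nothing is read from the calls of Sparcl1. With 1 array left out, genes called ranged from 25 to 785 higher and 16 to 610 lower, members called higher from 1 to 3 and lower 0 throughout, and genes called in the context lists from 2 to 20 higher and 0 to 3 lower. The ranges of the differences were 0.30 to 0.54 for Sparc, 2.56 to 2.71 for Sparcl1, 0.21 to 0.43 for Smoc1, 0.23 to 0.59 for Smoc2, 0.32 to 0.64 for Spock1, −0.32 to −0.06 for Spock2, 0.68 to 1.19 for Spock3 and 0.45 to 0.53 for Fstl1. Such fits have fewer arrays. Centring each array on the median level of the hepatoblast list, which is the level of Krt18, moved the median of all genes to −0.51; 127 genes were called higher and 11109 lower, 1 member higher (Sparcl1) and 1 lower (Spock2), and 4 and 22 genes of the context lists. The differences were then −0.090 for Sparc, 2.13 for Sparcl1, −0.17 for Smoc1, −0.14 for Smoc2, −0.021 for Spock1, −0.70 for Spock2, 0.47 for Spock3 and −0.0091 for Fstl1. Centring on the median of gene-centred hepatoblast values, chosen after seeing the data, moved the median to −0.14, with 346 genes higher and 1219 lower, 1 member higher, 10 and 2 context genes, and 0.36 for Fstl1; the other members kept their sign. With the sex term, which leaves control replicate 2 as the only control of the same sex, 3 genes were called higher and 0 lower, 1 member (Sparcl1), and 0 and 0 context genes, and Spock1 differed by 0.17. Deviations of same-numbered arrays from their group means correlated at −0.05, −0.01 and −0.08, and those of differently numbered arrays at −0.05 to 0.11. With 3 arrays a group, these values cannot tell whether same-numbered arrays were paired. With the replicate block 405 genes were higher and 281 lower, 1 member was called (Sparcl1) and 0 context genes were lower. At an adjusted p of 0.1, 1430 genes were higher and 1270 lower, with 32 and 4 context genes. Requiring at least 1.5-fold left 532 and 394 genes, 1 member and 12 context genes higher. Context genes called lower numbered 3 with a variance trend and 3 without the dimmest 50% of genes, which leaves out Spock1, Spock2 and Spock3. Beyond the construction of each alternative, the cause was not tested. Signal over background was not available to these values, so a limit for dim genes cannot be given.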
